A study of Homo sapiens with 4 samples.

Results

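The MYC-MAX-MXD network was followed across 4 RNA-Seq libraries of FaDu cells. Its 10 genes (MYC, MAX, MXI1, MXD1, MXD3, MXD4, MNT, MLX, MLXIP and MGA) were picked by symbol from the 62077 rows of the deposited expression table, and all 10 had a row on an assembled chromosome. FaDu is an established line of squamous carcinoma cells of the hypopharynx. The cells carried a lentiviral siRNA vector introduced some days earlier, either a scrambled control or TET1-si, which targets TET1, an enzyme that oxidises 5-methylcytosine in DNA. Each kind of cell was kept under normoxia, or under hypoxia for 19 h in 1% oxygen, 5% CO2 and 94% nitrogen. Cells with TET1-si are also called knockdown cells. The 4 groups are called N-scr (normoxia, scrambled control), N-si (normoxia, TET1-si), H-scr (hypoxia, scrambled control) and H-si (hypoxia, TET1-si), and each had 1 library of 1 cell line. No group had a replicate, so every difference below is one between single libraries, with no test and no p-value.

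MYC is a transcription factor that binds DNA as a pair with MAX, at the E-box motif CACGTG, and raises the expression of genes for ribosome production, nucleotide synthesis and cell division. MXD1, MXI1, MXD3, MXD4, MNT and MGA also pair with MAX and occupy E-boxes, where they recruit corepressors, so they are usually set against MYC. MLX pairs with MLXIP (also called MondoA), which senses glucose metabolites, and with some of the MXD proteins and MNT, and so ties a second arm to the network. Hypoxia-inducible factors (HIFs) bind the core motifs ACGTG and GCGTG, and MXI1 is a well-known HIF target.

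The core promoters of the 2 network genes with the largest hypoxia responses are shown with those motifs in capitals. RefSeq promoters, each from 250 bases before to 50 bases after a transcription start (GRCh38.p14 table), were taken for 9 of the 10 genes and numbered 14. The promoters of MYC were left out and not searched, so the motif counts below do not cover MYC. Each of the 14 had 1 exact match in hg19, the build of the expression table, and the coordinates are those of hg19. MXD4 has 1 listed start, on the minus strand of chromosome 4 (chr4:2263787-2264086). Its E-box begins at base -238 from the start. MXI1 has 3 listed starts on the plus strand of chromosome 10, and promoters 2 (chr10:111969739-111970038) and 3 (chr10:111985504-111985803) are given; each holds 2 HIF core motifs, counting both strands, and no E-box. Promoter 1 (chr10:111967113-111967412) held neither motif.
MXD4 promoter: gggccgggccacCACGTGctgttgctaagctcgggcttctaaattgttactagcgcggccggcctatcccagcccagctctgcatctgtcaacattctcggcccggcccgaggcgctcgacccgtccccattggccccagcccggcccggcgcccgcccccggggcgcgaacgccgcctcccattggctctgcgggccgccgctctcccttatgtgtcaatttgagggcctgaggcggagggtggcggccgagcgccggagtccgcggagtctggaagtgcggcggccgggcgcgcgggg
MXI1 promoter 2: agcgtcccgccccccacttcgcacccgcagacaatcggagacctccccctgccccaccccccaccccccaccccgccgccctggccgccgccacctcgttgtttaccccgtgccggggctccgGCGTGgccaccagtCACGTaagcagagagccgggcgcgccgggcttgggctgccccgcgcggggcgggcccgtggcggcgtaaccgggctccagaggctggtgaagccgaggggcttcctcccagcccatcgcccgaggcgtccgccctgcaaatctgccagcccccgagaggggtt
MXI1 promoter 3: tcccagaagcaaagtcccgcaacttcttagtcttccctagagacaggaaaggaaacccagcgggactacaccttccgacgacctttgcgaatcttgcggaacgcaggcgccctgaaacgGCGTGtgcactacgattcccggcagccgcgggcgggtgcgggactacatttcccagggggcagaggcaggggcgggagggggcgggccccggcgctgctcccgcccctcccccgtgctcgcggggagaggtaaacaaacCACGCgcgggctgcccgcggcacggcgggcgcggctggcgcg

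The other 2 E-boxes among the promoters searched lay at MNT, at base -193 from the start, and at MLX, at base -50. Both are shown in windows of 30 bases with the E-box in capitals. The MNT promoter lies on the minus strand (chr17:2304305-2304604) and the MLX promoter on the plus strand (chr17:40718868-40719167).
MNT window: ccctgcccgggcCACGTGtgcgcgcgccgg
MLX window: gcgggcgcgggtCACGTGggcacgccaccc

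CACGTG was thus in 3 of the 14 network promoters (21.4%), against 7.26% of the 35116 RefSeq promoters of the same length. ACGTG or GCGTG on either strand was in 11 of the 14 (78.6%), against 48.4% of all. Every CACGTG also holds ACGTG on both strands, and the network promoters had a GC content of 55.0% to 76.0% against a median of 58.7% over all promoters. These matches say where letters stand and nothing about binding.

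The knockdown was checked on TET1 itself. TET1 was listed at 0.129 FPKM in control and 0.0493 in TET1-si cells under normoxia, and at 0.331 and 0.122 FPKM under hypoxia, where FPKM is a fragment count corrected for transcript length and for sequencing depth. The TET1-si library was 2.63-fold lower under normoxia and 2.71-fold lower under hypoxia as ratios of FPKM, on about 11 to 76 reads per library, and the 95% counting intervals of the log2 ratios were [-2.59, -0.39] and [-2.13, -0.77]. With the pseudocount of 0.1 FPKM used below, the differences were -0.62 and -0.96, short of 2-fold, and TET1 lay below the minimum of 1 FPKM set for other genes. Sequencing depth, recovered from the steps in the values of single-exon genes, ranged from about 22500000 reads (H-si) to 24500000 reads (H-scr). Of 10 squamous epithelial markers, all 10 reached 1 FPKM in the scrambled libraries, against 8 (N-si) and 9 (H-si) in the others. KRT14 and KRT6A, keratins of basal and activated squamous cells, were at 42.1 and 67.7 FPKM in N-scr but at 0.487 and 0.394 FPKM in N-si, and at 99.9 and 109 FPKM in H-scr but at 1.41 and 0.357 FPKM in H-si. KRT5, KRT17, DSG3 and SFN of that list were also lower in both TET1-si libraries. With TET1-si, KRT5 went from 2673 to 524 FPKM under normoxia and from 3992 to 1430 under hypoxia. KRT17 went from 1503 to 764 and from 2741 to 1783 FPKM. Not every marker was lower. ITGB4 went from 121 down to 87.6 FPKM under normoxia but from 188 up to 202 under hypoxia, and CDH1 and EPCAM rose under both. CDH1, the epithelial cadherin, was at 179 FPKM in control and 267 in TET1-si cells under normoxia, and at 292 and 399 FPKM under hypoxia. EPCAM was likewise higher in both TET1-si libraries, and TP63, the squamous lineage factor, lay between 42.1 and 54.8 FPKM in all 4. Of 6 fibroblast markers, only COL1A1 reached 1 FPKM (5.29 to 37.0), with COL1A2 and LUM at 0 in every library. CD68 was the only one of 5 leukocyte markers above 1 FPKM, with CD3E at 0 and PTPRC at or below 0.0101. CDH5, an endothelial cadherin, was at 8.75 FPKM in control and 21.7 in TET1-si cells under normoxia, and at 16.0 and 45.5 FPKM under hypoxia. The keratin and CDH5 differences move with TET1-si, and their part in the results below was not tested.

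Changes were taken as differences of log2(FPKM + 0.1), which understates the change of low genes, and a gene is called changed at an absolute log2 difference of at least 1, that is 2-fold. All 10 network genes passed the minimum of a mean of 1 FPKM over the 4 libraries, as 15057 genes did in all. The brackets give exact (Clopper-Pearson) 95% intervals on approximate reads. They cover counting error only, with nothing of the spread between cultures or of the sharing of reads among isoforms.

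**Figure D1:**
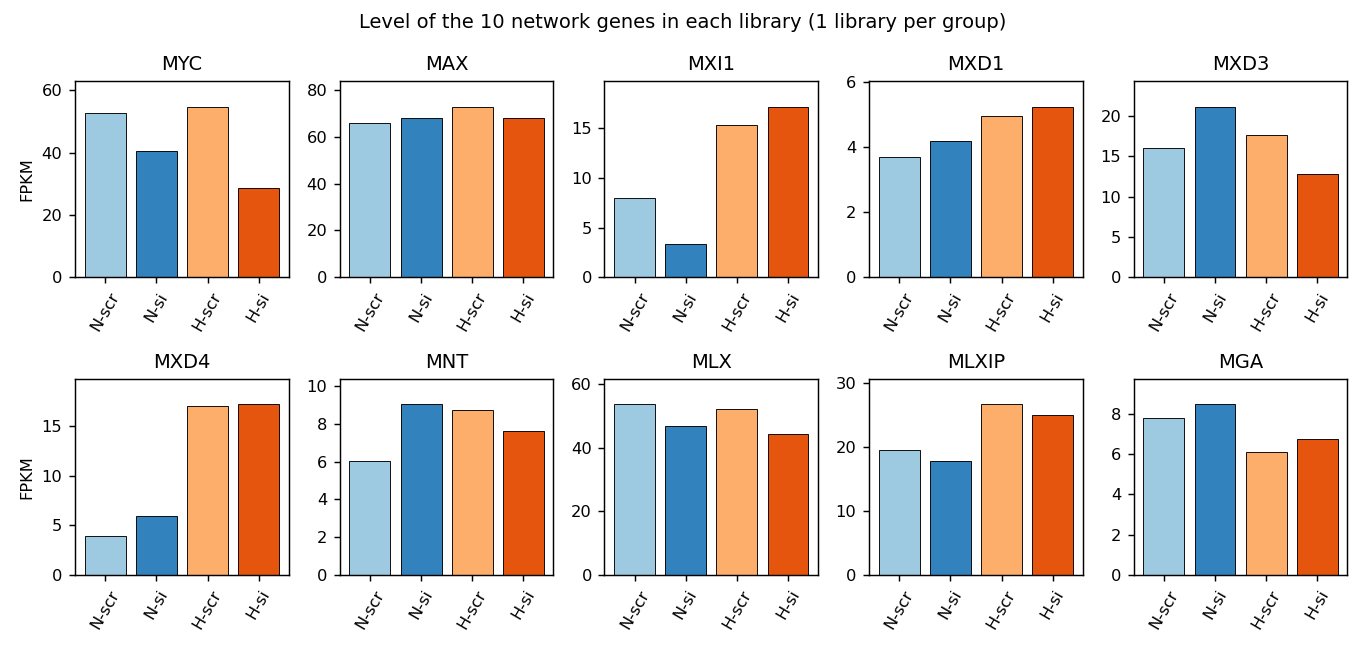
FPKM of the 10 network genes (bars from 0, a separate scale for each gene) in the 4 libraries, 1 library per bar and no error bar because no group had a replicate. MXD4 and MXI1 stand highest in the 2 hypoxic libraries, MYC is lowest in H-si at 28.5 FPKM, and MAX varies by 1.11-fold from its lowest to its highest library.

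MYC was similar in the scrambled libraries and lower in the TET1-si libraries, most of all under hypoxia. MYC (ENSG00000136997; hg19 chr8:128747680-128753674, plus strand) was at 52.8 FPKM in control and 40.6 in TET1-si cells under normoxia, and at 54.8 and 28.5 FPKM under hypoxia. The 2 scrambled libraries were thus the highest and H-si the lowest. Hypoxia in scrambled cells moved it by 0.05 [-0.01, 0.11] on the log2 scale, an interval that includes 0, and this value turned to -0.06 under median-of-ratios scaling. In knockdown cells the hypoxic library was lower by 1.43-fold, with a log2 difference of -0.51 [-0.59, -0.44]. TET1-si against scrambled control gave -0.94 [-1.02, -0.87] under hypoxia, 1.93-fold lower, and -0.38 [-0.44, -0.31] under normoxia, 1.30-fold lower. MYC under hypoxia therefore fell just short of the 2-fold limit, and it crossed it under median-of-ratios scaling at -1.09. About 2247 to 4710 reads stood behind each of these levels. In RNA from whole cultures, fewer cells of a kind and less mRNA per cell cannot be told apart.

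MAX, the shared partner of every MYC and MXD protein, was the steadiest gene of the network and the highest in every library. MAX (ENSG00000125952; hg19 chr14:65472892-65569413, minus strand) was at 65.9 FPKM in control and 68.1 in TET1-si cells under normoxia, and at 73.0 and 68.1 FPKM under hypoxia. All 4 libraries were close, and the widest log2 difference was 0.15 [0.07, 0.22], between H-scr and N-scr. Its TET1-si difference under normoxia was 0.05 and turned to -0.12 under median-of-ratios scaling. The ratio of MYC to MAX, both in FPKM, was 0.801 in control and 0.596 in TET1-si cells under normoxia, and 0.751 and 0.418 under hypoxia, lowest where MYC was lowest. Exons of MAX overlap those of FNTB and CHURC1-FNTB on the other strand, and the sources used here do not say whether counting used strand.

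MXD4 and MXI1 were the network genes with the largest hypoxia responses. MXD4 (ENSG00000123933; hg19 chr4:2249159-2264021, minus strand), a repressor linked to cells leaving the cycle, was at 3.92 FPKM in control and 5.89 in TET1-si cells under normoxia, and at 17.0 and 17.2 FPKM under hypoxia. Both hypoxic libraries were well above both normoxic ones. In scrambled cells the hypoxic library was 4.33-fold higher, a log2 difference of 2.09 [1.94, 2.29], which placed it 486th from the highest of 15057 genes. In knockdown cells the hypoxic library was 2.92-fold higher, at 1.53 [1.40, 1.69], in place 817 from the highest. Under normoxia the TET1-si library stood above its control by 0.58 [0.39, 0.79]. Under hypoxia the difference was 0.02 [-0.09, 0.12], and its sign turned under median-of-ratios scaling (-0.13) and under upper-quartile scaling (-0.03).

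MXI1 had the widest range of the network, 5.23-fold from its lowest to its highest library. MXI1 (ENSG00000119950; hg19 chr10:111967363-112047123, plus strand), which competes with MYC for MAX, was at 7.93 FPKM in control and 3.29 in TET1-si cells under normoxia, and at 15.3 and 17.2 FPKM under hypoxia. N-si stood apart as the lowest library, and the 2 hypoxic libraries were close to each other. Hypoxia in scrambled cells gave a log2 difference of 0.94 [0.80, 1.09], 1.93-fold, just below the 2-fold limit, and 1.06 after rescaling to TPM, a unit with the same total in every library. Hypoxia in knockdown cells gave 2.35 [2.19, 2.59], 5.23-fold, place 295 from the highest. TET1-si gave -1.25 [-1.49, -1.06] under normoxia, 2.41-fold lower and in place 561 from the lowest, and 0.17 [0.05, 0.28] under hypoxia. The larger hypoxia response in knockdown cells thus started from a lower normoxic level and ended at a similar hypoxic level. The table gives 1 value for the gene, so the 3 starts whose windows are shown above or named there cannot be told apart in it.

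MXD3 and MNT differed in opposite directions under the 2 oxygen levels, by less than 2-fold throughout. MXD3 (ENSG00000213347; hg19 chr5:176728462-176739758, minus strand), the MXD protein linked to S phase, was at 16.1 FPKM in control and 21.2 in TET1-si cells under normoxia, and at 17.7 and 12.8 FPKM under hypoxia. N-si was the highest library and H-si the lowest, with the 2 scrambled libraries between them. TET1-si gave a log2 difference of 0.40 [0.19, 0.61] under normoxia and -0.46 [-0.71, -0.23] under hypoxia. Hypoxia gave 0.14 [-0.08, 0.36] in scrambled cells and -0.72 [-0.96, -0.50] in knockdown cells. Exons of MXD3 overlap those of PRELID1 and RAB24, so part of its reads may belong to them.

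MNT (ENSG00000070444; hg19 chr17:2287354-2304412, minus strand), a broadly expressed MAX partner that holds E-boxes in resting cells, was at 6.04 FPKM in control and 9.03 in TET1-si cells under normoxia, and at 8.72 and 7.63 FPKM under hypoxia. N-scr was the lowest library and the other 3 lay close together. Hypoxia gave a log2 difference of 0.52 [0.38, 0.67] in scrambled cells and -0.24 [-0.38, -0.11] in knockdown cells. TET1-si gave 0.57 [0.44, 0.72] under normoxia and -0.19 [-0.33, -0.06] under hypoxia.

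MXD1 (ENSG00000059728; hg19 chr2:70124820-70170077, plus strand), a repressor induced when epithelial and myeloid cells differentiate, was the lowest of the network in 3 of the 4 libraries. It was at 3.70 FPKM in control and 4.17 in TET1-si cells under normoxia, and at 4.95 and 5.24 FPKM under hypoxia. Both hypoxic libraries were above both normoxic ones, by a log2 difference of 0.41 [0.24, 0.60] in scrambled cells and 0.32 [0.16, 0.50] in knockdown cells. MXD1 shares exon sequence with SNRNP27 on the same strand. Its TET1-si differences, 0.17 [-0.01, 0.36] under normoxia and 0.08 [-0.08, 0.24] under hypoxia, had intervals that include 0, and the second turned to -0.06 under median-of-ratios scaling.

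MGA (ENSG00000174197; hg19 chr15:41913422-42062141, plus strand), the scaffold of a Polycomb complex known as PRC1.6, was lower in each hypoxic library than in the normoxic library of the same cells. It was at 7.80 FPKM in control and 8.47 in TET1-si cells under normoxia, and at 6.12 and 6.75 FPKM under hypoxia. The hypoxia difference was -0.34 [-0.44, -0.26] in scrambled cells and -0.32 [-0.41, -0.24] in knockdown cells. TET1-si gave 0.14 [0.05, 0.24] under hypoxia and 0.12 [0.03, 0.20] under normoxia, the latter turning to -0.05 under median-of-ratios scaling.

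In the MLX arm, MLXIP was higher under hypoxia and MLX was nearly level. MLXIP (ENSG00000175727; hg19 chr12:122516628-122629266, plus strand) was at 19.5 FPKM in control and 17.8 in TET1-si cells under normoxia, and at 26.6 and 25 FPKM under hypoxia. Hypoxia gave 0.44 [0.39, 0.51] in scrambled cells and 0.49 [0.43, 0.55] in knockdown cells, with small differences after TET1-si of -0.13 and -0.09 under normoxia and hypoxia. MLX (ENSG00000108788; hg19 chr17:40719086-40725257, plus strand) was at 53.7 FPKM in control and 46.8 in TET1-si cells under normoxia, and at 52.2 and 44.4 FPKM under hypoxia. Here the TET1-si libraries were the lower ones, with log2 differences of -0.20 [-0.28, -0.12] under normoxia and -0.23 [-0.32, -0.15] under hypoxia. The hypoxia differences of MLX, -0.04 and -0.08, turned to 0.08 and 0.06 after rescaling to TPM. Exons of MLX overlap those of the protein-coding PSMC3IP on the other strand. The ratio of MLXIP to MLX in FPKM was 0.364 in control and 0.381 in TET1-si cells under normoxia, and 0.510 and 0.564 under hypoxia, higher in both hypoxic libraries.

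**Figure D2:**
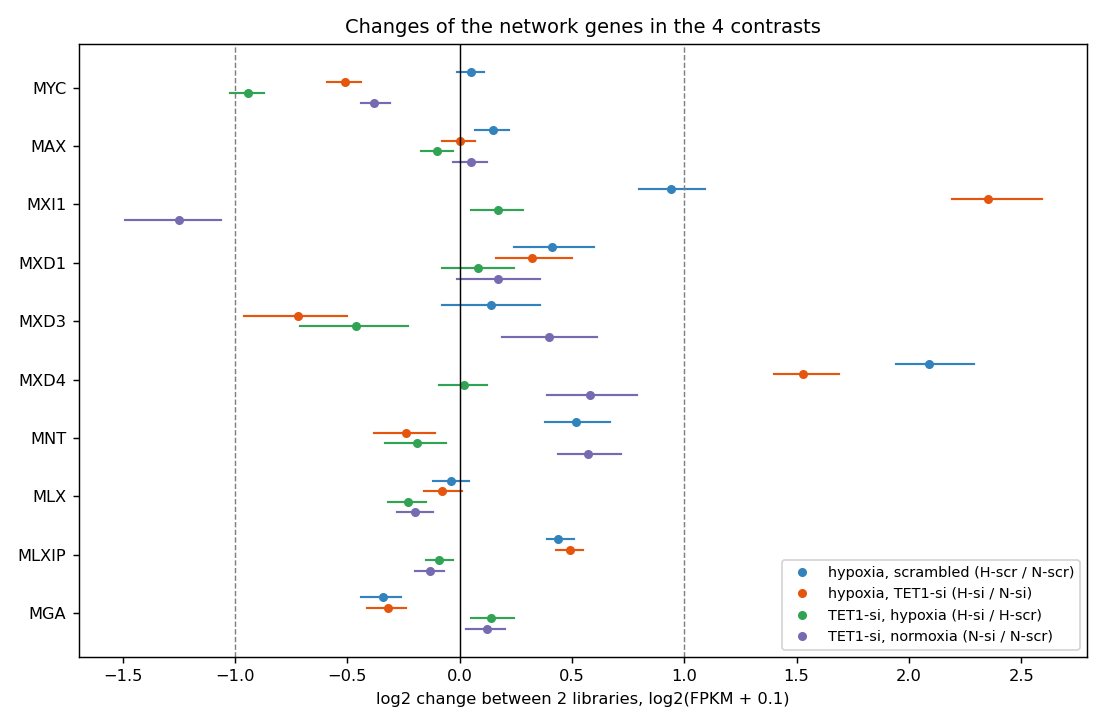
Log2 changes of the 10 network genes (points) in the 4 contrasts with exact 95% counting intervals (lines), and the 2-fold limits as dashed lines. MXI1 and MXD4 lie right of the upper limit in knockdown cells under hypoxia at 2.35 and 1.53, MYC lies left of 0 in 3 contrasts, and the lines carry no spread between cultures.

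Counted together, few network genes reached 2-fold. In scrambled cells, 1 of 10 was at least 2-fold higher under hypoxia (MXD4) and 0 lower, where 12.9% of all 15057 genes were higher and 4.53% lower. In knockdown cells, 2 of 10 (MXI1 and MXD4) were higher and 0 lower, where 12.5% of all genes were higher and 8.66% lower. For TET1-si under hypoxia, 0 of 10 passed in either direction, where 12.0% of all genes were higher and 8.35% lower. For TET1-si under normoxia, 0 of 10 were higher and 1 lower (MXI1), where 12.1% of all genes were higher and 5.56% lower. These shares are near those of all genes, as far as 10 genes can show. Under median-of-ratios scaling the higher share of all changed genes went from 59.0% to 47.0% for TET1-si under hypoxia and from 68.6% to 56.0% under normoxia, so directions of small TET1-si differences rest on the scaling.

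The median log2 change over the network was 0.28 for hypoxia in scrambled cells, -0.04 for hypoxia in knockdown cells, -0.10 for TET1-si under hypoxia and 0.08 for TET1-si under normoxia. Over all genes the same medians were 0.05, 0.03, 0.10 and 0.15. The contrasts share libraries with each other, so their values are set side by side and not compared further. The study's selection asked that H-scr exceed both N-scr and 2 times H-si, and that N-si not exceed N-scr. These 3 criteria were met by 0 of the 10 network genes and by 3.84% of all genes. MYC met the other 2 but had a ratio of H-scr to H-si of 1.93.

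The balance of the network differed between libraries in make-up as well as in size. The 6 MAX partners other than MYC (MXI1, MXD1, MXD3, MXD4, MNT and MGA) summed to 45.5 FPKM in control and 52.0 in TET1-si cells under normoxia, and to 69.8 and 66.8 FPKM under hypoxia. Set against MYC, the ratio was 0.862 and 1.28 under normoxia (control, then TET1-si), and 1.27 and 2.35 under hypoxia. It was below 1 in N-scr alone, similar in N-si and H-scr, and highest in H-si. With the 4 MXD genes only, it was 0.599, 0.850, 1.00 and 1.84 in the same order of libraries, so H-si was again the highest and N-scr the lowest. N-si was then also below 1 and lower than H-scr, so those 2 statements rest on counting MNT and MGA.

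MXI1 and MXD4 together made up 26.1% of the summed level in control and 17.6% in TET1-si cells under normoxia, and 46.3% and 51.5% under hypoxia. The share of MXD3 went the other way, with 35.4% in control and 40.7% in TET1-si cells under normoxia, and 25.4% and 19.2% under hypoxia. By level, MAX came first in every library, with MLX and MYC in the next places and MLXIP or MXD3 after them. MXI1 was sixth in N-scr at 7.93 FPKM, next to MGA at 7.80, and last in N-si at 3.29. MXD4 moved from place 9 in N-scr to place 6 in H-scr. In H-si, MXI1 and MXD4 were both at 17.2 FPKM.

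**Figure D3:**
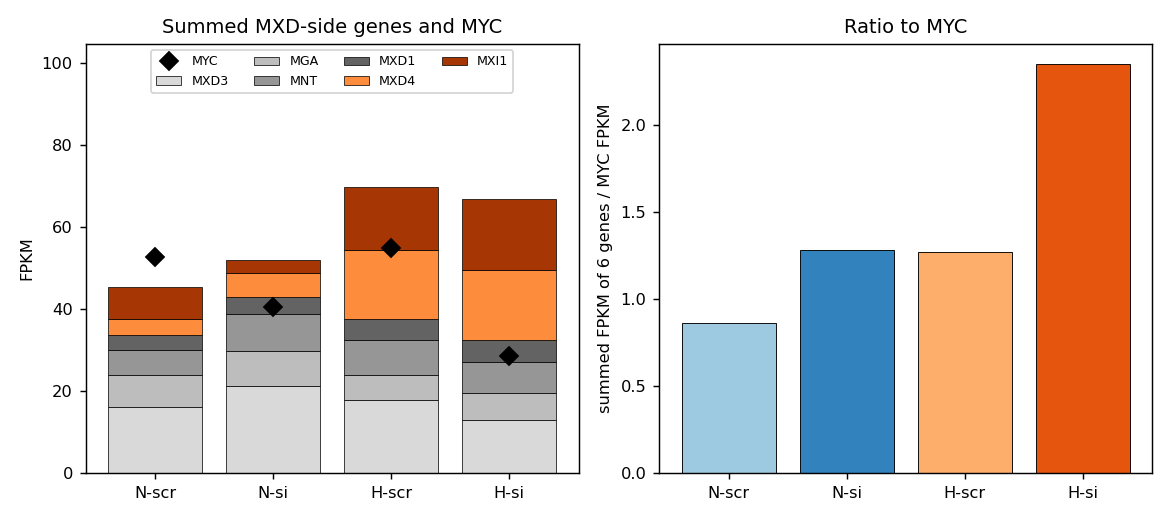
Left, the FPKM of 6 MAX partners stacked by gene with MYC as a diamond in each of the 4 libraries; right, the ratio of the stack to MYC, both axes from 0 and 1 library per bar. The ratio is 0.862 in N-scr and 2.35 in H-si, and the MXI1 and MXD4 layers are thickest in the 2 hypoxic libraries.

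Each network gene was also set beside its chromosomal neighbourhood, the 25 expressed genes on each side. The interquartile range of the 50 neighbours of MYC went from -0.24 to 0.69 for TET1-si under hypoxia around a median of 0.23, and MYC itself at -0.94 lay below it. Under normoxia their median was 0.34 and MYC was at -0.38. The neighbours of MXI1 had a median of 0.03 for TET1-si under normoxia and of -0.01 for hypoxia in knockdown cells, where MXI1 was at -1.25 and 2.35. The neighbours of MXD4 had a median of 0.07 for hypoxia in scrambled cells, against 2.09 for MXD4. MNT lay among genes that were higher after TET1-si, with neighbour medians of 0.51 under normoxia and 0.60 under hypoxia. MNT followed them under normoxia at 0.57 and not under hypoxia at -0.19. Lying below the interquartile range was not particular to MYC. For TET1-si under hypoxia it also held for MAX at -0.10, MXD3 at -0.46 and MNT, and under normoxia for MXI1 and for MLX at -0.20.

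**Figure D4:**
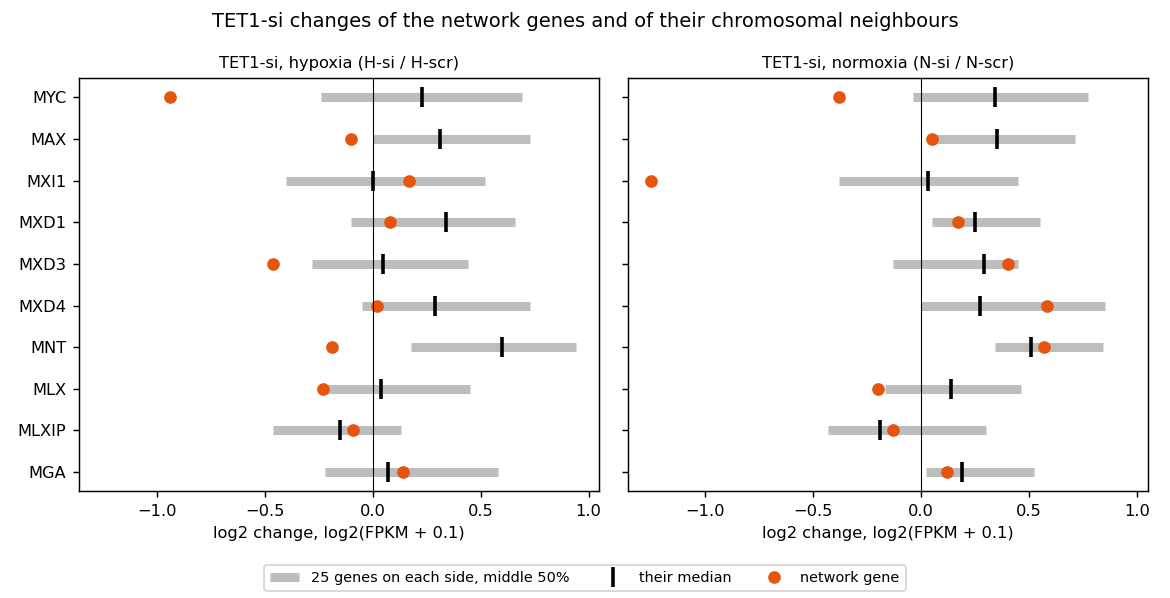
Log2 change after TET1-si of each network gene (orange point) beside the median (black tick) and interquartile range (grey bar) of the 25 expressed genes on each side of it, under hypoxia (left) and normoxia (right). MYC lies left of the grey bar in both panels, and MXI1 in the normoxia panel only, at -1.25. MAX, MXD3 and MNT also lie left of it in the hypoxia panel, and MLX in the normoxia panel.

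Among 10785 other genes with a mean of at least 5 FPKM, those closest in pattern were named by the Euclidean distance of their log2 levels over the 4 libraries, each gene centred on its own mean. HADH, a mitochondrial enzyme of fatty acid oxidation, was closest to MYC with a distance of 0.0446, at 44.6 FPKM in control and 35.5 in TET1-si cells under normoxia, and at 47.2 and 25 FPKM under hypoxia. NSUN4, a mitochondrial RNA methyltransferase, followed at 0.0516, and PAX6, a transcription factor, at 0.0600. For MXI1 the closest gene was SYT8, a synaptotagmin, with a larger distance of 0.277, at 153 FPKM in control and 81.6 in TET1-si cells under normoxia, and at 301 and 383 FPKM under hypoxia. KRT19, a simple-type keratin, followed at 0.370, and PLA2G6, a phospholipase, at 0.392. With 4 libraries many patterns look alike.

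Genes that MYC is known to activate were lower under hypoxia as a group. Of 40 listed genes for ribosome production, nucleotide synthesis and growth, 39 passed the minimum (TERT did not). In scrambled cells, 24 of the 39 were at least 2-fold lower under hypoxia (61.5%), 0 were higher, and the median log2 change was -1.11 against 0.05 over all genes. In knockdown cells, 25 were lower (64.1%), 0 higher, and the median was -1.22 against 0.03. All 39 lay below 0 in both, where 4.53% (scrambled) and 8.66% (knockdown) of all genes were at least 2-fold lower. MYC mRNA itself differed by 0.05 on the log2 scale between the 2 scrambled libraries. For TET1-si, 7 were 2-fold lower under hypoxia (17.9%, median -0.49) and 2 under normoxia (5.13%, median -0.37), with 0 higher in either. Of all genes, 8.35% were lower under hypoxia and 5.56% under normoxia, so the normoxia share was near that of all genes.

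ODC1, the first enzyme of polyamine synthesis, was at 89.4 FPKM in control and 63.5 in TET1-si cells under normoxia, and at 17.6 and 10.7 FPKM under hypoxia. Its hypoxia difference was -2.34 [-2.45, -2.25] in scrambled cells and -2.55 [-2.70, -2.43] in knockdown cells. SRM, the spermidine synthase of the same pathway, was at 59.0, 32.3, 15.5 and 8.98 FPKM in the same order of libraries. Both polyamine enzymes were highest in N-scr and lowest in H-si. TCOF1, a nucleolar factor of ribosomal RNA synthesis, was at 87.6 FPKM in control and 79.1 in TET1-si cells under normoxia, and at 35.3 and 15.9 FPKM under hypoxia. After TET1-si the largest mean differences were those of FBL, PPAN and WDR12, which all work in ribosome production. FBL, the methyltransferase fibrillarin, was at 496 FPKM in control and 219 in TET1-si cells under normoxia, and at 313 and 111 FPKM under hypoxia, a TET1-si difference of -1.49 [-1.56, -1.43] under hypoxia and -1.18 [-1.23, -1.13] under normoxia. PPAN went from 48.4 to 26.4 FPKM with TET1-si under normoxia and from 35.5 to 14.4 under hypoxia. WDR12 went from 49.8 to 21.7 and from 18.4 to 10.3 FPKM.

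Of 18 genes reported as repressed by MYC, 16 passed the minimum, and 9 of these were at least 2-fold higher under hypoxia in scrambled cells (56.2%), 0 lower, with a median of 1.13. In knockdown cells 5 were higher (31.2%) and 1 lower (GADD45A, a DNA damage gene, at -1.21), with a median of 0.69 and 3 of 16 below 0. Of all genes, 12.9% were higher under hypoxia in scrambled cells, and 12.5% were higher and 8.66% lower in knockdown cells. After TET1-si, 0 were higher and 1 lower under hypoxia (median -0.01), and 2 higher and 0 lower under normoxia (median 0.16). These shares, 6.25% lower under hypoxia and 12.5% higher under normoxia, stand near the 8.35% and 12.1% of all genes. NDRG1, a stress-induced growth suppressor that is also a HIF target and stands in both lists, was at 15.9 FPKM in control and 28.0 in TET1-si cells under normoxia, and at 497 and 579 FPKM under hypoxia. CDKN1C, an inhibitor of cyclin-dependent kinases, was low throughout, at 0.387, 0.364, 2.40 and 1.24 FPKM in the same order, and passed the minimum only through the hypoxic libraries, so its place among those 9 is no support. With a minimum mean of 5 FPKM the median of the list in scrambled cells was 0.87. TXNIP, a thioredoxin inhibitor and the standard MLXIP target, also listed among those targets, was at 19.4 FPKM in control and 23.0 in TET1-si cells under normoxia, and at 67.1 and 69.1 FPKM under hypoxia. CDKN2B, another kinase inhibitor, was at 3.66, 14.7, 17.4 and 28.8 FPKM, lowest in N-scr. KLF6, a zinc finger factor, was at 9.24, 7.49, 22.1 and 5.81 FPKM, and its TET1-si difference under hypoxia was -1.91 [-2.06, -1.80]. BTG2, an antiproliferative gene, was at 1.41, 3.89, 3.58 and 4.21 FPKM.

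Of 8 targets of the MLX and MLXIP pair, 1 was at least 2-fold higher under hypoxia in scrambled cells (TXNIP; median of the list 0.56) and 2 in knockdown cells (TXNIP and ARRDC3; median 0.26). The shares, 12.5% and 25%, stand beside 12.9% and 12.5% of all genes, so in scrambled cells the share was near that of all genes. ARRDC3, an arrestin-like gene, was at 6.36 FPKM in control and 5.25 in TET1-si cells under normoxia, and at 12.7 and 11.5 FPKM under hypoxia. HK2, a hexokinase, was at 11.6, 13.5, 19.4 and 22.2 FPKM in the same order. KLF10, a growth-inhibitory transcription factor, was lower after TET1-si, with 39.4 FPKM in control and 19.9 in TET1-si cells under normoxia, and 35.6 and 18.3 FPKM under hypoxia. No gene of the list passed 2-fold in either TET1-si contrast, where its median was -0.05 under hypoxia and 0.17 under normoxia. KLF10 fell just short of the limit in both, at -0.96 under hypoxia and -0.98 under normoxia. Over all genes, 12.0% were higher and 8.35% lower after TET1-si in hypoxic cells, with a median of 0.10. In normoxic cells the shares were 12.1% and 5.56%, with a median of 0.15.

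HIF targets were higher under hypoxia in both kinds of cell. Of 20 listed, MXI1 among them, 15 were at least 2-fold higher under hypoxia in scrambled cells (75%, median 1.64) and 14 in knockdown cells (70.0%, median 1.43), with 0 lower in either. After TET1-si, 0 were higher and 2 lower under hypoxia (median -0.10), and 3 higher and 4 lower under normoxia (median 0.27). For hypoxia, the shares over all genes were 12.9% higher and 4.53% lower in scrambled cells, and 12.5% and 8.66% in knockdown cells. For TET1-si they were 12.0% and 8.35% in hypoxic cells, and 12.1% and 5.56% in normoxic cells. The medians over all genes were 0.05, 0.03, 0.10 and 0.15 in that order of contrasts. CA9, a carbonic anhydrase, was at 0.180 FPKM in N-scr and listed at 0 in N-si, against 7.82 FPKM in H-scr and 0.506 in H-si. It passed the minimum only through H-scr, and ANGPTL4, a secreted lipase inhibitor at 0.364, 0.813, 1.16 and 2.36 FPKM, only through the hypoxic libraries, so their counts as changed are no support, and the call of CA9 in knockdown cells rests on a listed 0. With a minimum mean of 5 FPKM the medians of the list were 1.62 and 1.37. EGLN3, an oxygen-sensing prolyl hydroxylase, was at 2.62, 5.68, 62.9 and 57.9 FPKM in the order N-scr, N-si, H-scr, H-si. ADM, the peptide adrenomedullin, was lower after TET1-si, at 21.1, 6.94, 35.9 and 11.6 FPKM. PDK1, a kinase that holds pyruvate out of mitochondria, was higher after TET1-si, at 1.71, 6.16, 8.77 and 16.0 FPKM.

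**Figure D5:**
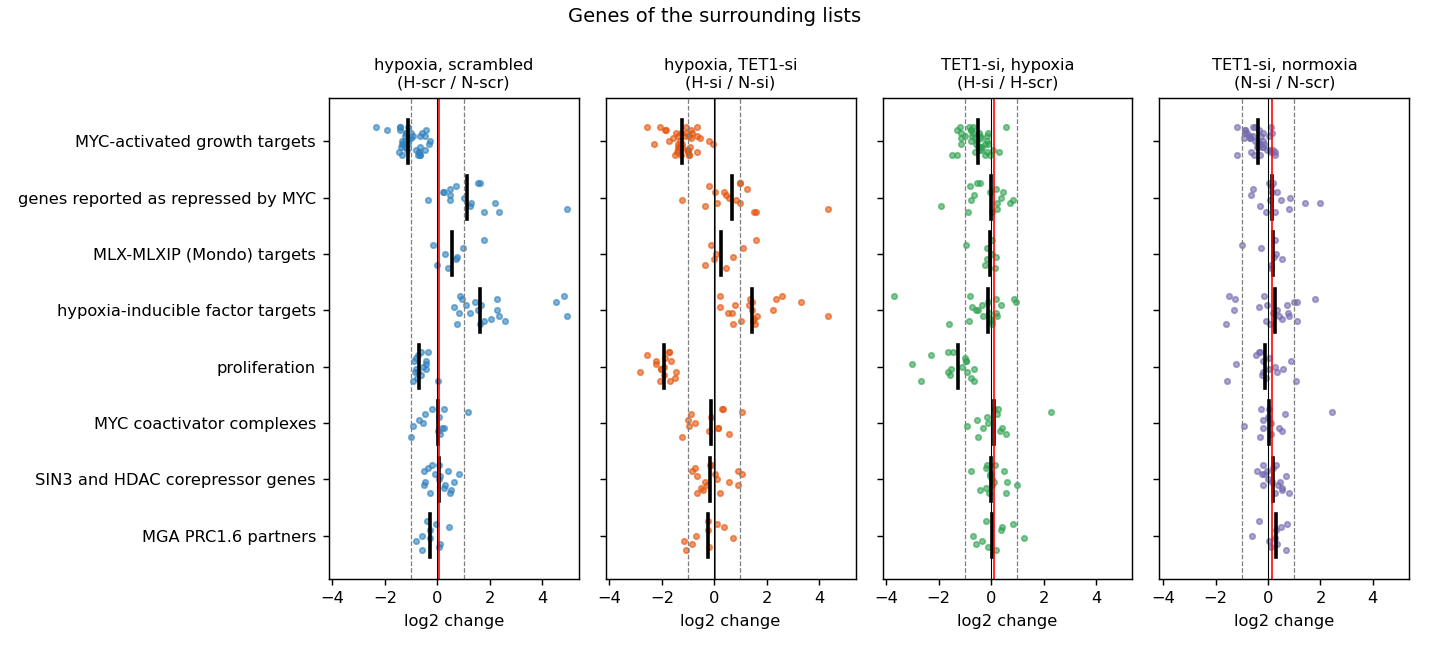
Log2 changes (points, 1 per gene) of 8 gene lists in the 4 contrasts, with each list's median as a black bar, the median of all genes as a red line and the 2-fold limits dashed. The 39 MYC-activated genes lie left of 0 in both hypoxia panels with medians of -1.11 and -1.22, and the 16 proliferation genes lie left of the lower limit in knockdown cells under hypoxia.

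Proliferation genes are given beside MYC, since they were lowest in the same library. Of 16 listed, 0 were 2-fold lower under hypoxia in scrambled cells (median -0.68), 16 of 16 were lower in knockdown cells (median -1.92), and 9 of 16 were lower after TET1-si under hypoxia (56.2%, median -1.27). Under normoxia, TET1-si gave 2 lower (12.5%) and 1 higher (6.25%), with a median of -0.12. Of all genes, 4.53% were lower under hypoxia in scrambled cells and 8.66% in knockdown cells. After TET1-si, 8.35% of all genes were lower under hypoxia, and 5.56% were lower and 12.1% higher under normoxia. MCM5, part of the replicative helicase, was at 154 FPKM in control and 66.3 in TET1-si cells under normoxia, and at 115 and 14.0 FPKM under hypoxia. CCNA2, the cyclin of S phase and G2, was at 64.6, 22.0, 34.1 and 5.22 FPKM in the same order. MCM2, another helicase part, was at 137, 100, 83.3 and 16.9 FPKM. RRM2, a subunit of ribonucleotide reductase, was at 138, 175, 75.5 and 24.2 FPKM. All 4 were lowest in H-si. The part of fewer dividing cells in the levels of MYC, MXD3 and the growth genes was not tested.

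The other members of the wider family were few. MYCN and MLXIPL stayed below the minimum, and 4 of 6 listed genes passed it. MYCL1, a MYC paralogue, was at 0.320 FPKM in control and 0.842 in TET1-si cells under normoxia, and at 0.715 and 3.24 FPKM under hypoxia, a TET1-si difference of 2.03 [1.76, 2.62] under hypoxia and 1.16 [0.72, 2.15] under normoxia. It passed the minimum only through H-si, where it was high, so its count as changed is no support. PVT1, a long non-coding RNA gene next to MYC, was at 60.9, 75, 51.7 and 98.9 FPKM in the same order, highest in H-si where MYC was lowest. MYCBP2, a ubiquitin ligase that binds MYC, was at 22.5, 15.2, 28.2 and 15.5 FPKM, lower in both TET1-si libraries. MYCBP, a small MYC-binding protein, was at 81.5, 72.0, 52.9 and 40.1 FPKM. In the 4 contrasts the list had at most 1 gene 2-fold higher and 0 lower. That gene was MYCL1, in every contrast but hypoxia in scrambled cells. Over all genes, 12.0% to 12.9% were higher and 4.53% to 8.66% lower. A list of 4 genes is too short to set against these shares.

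Of 16 regulators of MYC stability and activity, 0 were 2-fold changed by hypoxia in scrambled cells or by TET1-si under normoxia, and 2 were lower by hypoxia in knockdown cells and by TET1-si under hypoxia, with 0 higher. Both times these were AURKA and KIAA1524, and their share of 12.5% stands near the 8.66% and 8.35% of all genes. In those 2 contrasts, 12.5% and 12.0% of all genes were higher. For hypoxia in scrambled cells, 12.9% of all genes were higher and 4.53% lower, and for TET1-si under normoxia 12.1% and 5.56%. KIAA1524, which shields MYC from a phosphatase, was at 61.6 FPKM in control and 38.3 in TET1-si cells under normoxia, and at 33.3 and 10.9 FPKM under hypoxia. AURKA, a mitotic kinase that also binds MYC proteins, was at 92.1, 92.1, 59.6 and 29.4 FPKM in the same order. SKP2, a ubiquitin ligase subunit for MYC, was at 21.4, 17.9, 13.6 and 9.21 FPKM. USP28, a deubiquitinase of MYC, was higher after TET1-si, at 14.1, 26.1, 15.4 and 20.4 FPKM. GSK3B, the kinase that marks MYC for breakdown, was at 31.9 FPKM in control and 20.5 in TET1-si cells under normoxia, and at 35.0 and 19.9 FPKM under hypoxia. The medians of the list were -0.00, -0.29, -0.13 and 0.06 for hypoxia in scrambled cells, hypoxia in knockdown cells, TET1-si under hypoxia and TET1-si under normoxia.

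Partners that carry out activation or repression moved little as groups. Of 13 coactivator genes, 1 was 2-fold higher in each of the 4 contrasts (7.69%, against 12.0% to 12.9% of all genes), and that gene was KAT2B, an acetyltransferase. KAT2B was at 1.94 FPKM in control and 10.9 in TET1-si cells under normoxia, and at 4.50 and 22.6 FPKM under hypoxia, with a TET1-si difference of 2.30 [2.18, 2.48] under hypoxia and 2.43 [2.26, 2.72] under normoxia. RUVBL1 and RUVBL2, paired ATPases that MYC binds, were lower under hypoxia. RUVBL1 was at 130 FPKM in control and 105 in TET1-si cells under normoxia, and at 65.0 and 45.6 FPKM under hypoxia. It was the 1 coactivator 2-fold lower, by hypoxia in knockdown cells (7.69%, against 8.66% of all genes). RUVBL2 was at 166, 88.6, 87.1 and 45.7 FPKM in the same order. ACTL6A, an actin-related subunit, was at 359, 558, 257 and 304 FPKM.

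Of 17 SIN3 and HDAC corepressor genes, through which the MXD proteins and MNT act, 1 was 2-fold higher in knockdown cells under hypoxia (ARID4A) and 0 were changed in the other contrasts. That share of 5.88% stands beside 12.5% of all genes. In the other contrasts, 12.0% to 12.9% of all genes were higher and 4.53% to 8.35% lower. ARID4A was at 10.8 FPKM in control and 9.16 in TET1-si cells under normoxia, and at 19.1 and 19.0 FPKM under hypoxia. SIN3B, a scaffold of the complex, was at 28.8, 37.8, 35.7 and 71.3 FPKM in the same order, highest in H-si. Its TET1-si difference under hypoxia, 1.00 [0.94, 1.05], fell just short of the limit. SAP30, a small subunit, was at 10.3, 7.74, 7.18 and 4.22 FPKM, and ARID4B at 13.4, 23.4, 18.6 and 27.1 FPKM. The corepressor genes were within 2-fold between the scrambled libraries, where 12.9% of all genes were higher under hypoxia and 4.53% lower. MXD4 was 4.33-fold higher there.

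Of 10 partners of MGA in the PRC1.6 complex, 2 were 2-fold lower in knockdown cells under hypoxia (PCGF6 and TFDP1), 1 was higher after TET1-si under hypoxia (TFDP2), and 0 were changed in the other 2 contrasts. For hypoxia in knockdown cells, 8.66% of all genes were lower and 12.5% higher. For TET1-si under hypoxia, 12.0% were higher and 8.35% lower, so 1 of 10 higher was near the share of all genes. In the other 2 contrasts, 12.1% to 12.9% of all genes were higher and 4.53% to 5.56% lower. PCGF6, the subunit that defines the complex, was at 17.3 FPKM in control and 17.5 in TET1-si cells under normoxia, and at 9.90 and 7.78 FPKM under hypoxia, lower under hypoxia as MGA was. TFDP1, a partner of E2F factors, was at 149, 237, 98.5 and 113 FPKM in the same order. TFDP2, its paralogue, was at 37.7, 45.5, 31.3 and 75.4 FPKM. CBX3, a heterochromatin protein, was at 266, 174, 176 and 107 FPKM, and RYBP, a Polycomb subunit, at 7.13, 11.7, 6.93 and 12.5 FPKM.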

How the data were processed

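RNA-Seq was measured in 4 libraries of 1 cell line, with 1 library per group, named from the labels. The authors prepared TruSeq mRNA libraries, aligned the reads to hg19 with TopHat and deposited Cufflinks FPKM per gene (Ensembl annotation; versions and release not given in the sources used here). The labels describe single-end reads and the study's methods paired-end reads. Unused here were 232 rows of 111 repeated gene IDs. Start positions were raised by 1. Depth and approximate reads came from single-exon genes (95.0% to 96.0% of low values were whole within 0.05 reads) and canonical transcripts of GENCODE v44lift37. Changes used a pseudocount of 0.1 FPKM, a minimum mean of 1 FPKM and a 2-fold limit, in Python 3.11.15 with pandas 2.3.3, numpy 2.4.6 and scipy 1.17.1. The steps were tested on simulated data. The network genes, the gene lists and the rule for naming genes were chosen with earlier results of these data known. The rule took all network genes, the 3 genes per list with the largest mean change over the 2 hypoxia contrasts and over the 2 TET1-si contrasts with 1 sign in both, and the 3 genes nearest in pattern to MYC and to MXI1. Of the genes so named, 1 is not reported here. Alternatives were another pseudocount, scalings, filters and fold limits.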

Additional observations from a re-analysis of the deposited data

Results flagged for a closer look

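Network genes were singled out where a response had the opposite sign under the other condition and the counting intervals of both values excluded 0. The differences between the 2 responses were not tested, since each rests on 4 single libraries. MXI1 after TET1-si was at 0.17 on the log2 scale under hypoxia but at -1.25 under normoxia, a difference of 1.41. MXD3 after TET1-si was at -0.46 under hypoxia but at 0.40 under normoxia, a difference of -0.86. MNT was singled out in both ways. Hypoxia moved it by 0.52 in scrambled and by -0.24 in knockdown cells, TET1-si moved it by -0.19 in hypoxic and by 0.57 in normoxic cells, and both differences are -0.76 because they come from the same 4 values.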

How the results depend on the processing

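Of the recomputed changes of network genes, 157 stayed within their counting intervals, 43 moved further and 0 of the called ones reversed. Median-of-ratios scaling shifted the median of all genes by -0.10, -0.08, -0.13 and -0.15 in the order hypoxia in scrambled cells, hypoxia in knockdown cells, TET1-si under hypoxia and TET1-si under normoxia, and rescaling to TPM by 0.12, 0.13, 0.07 and 0.05. The network genes changed at least 2-fold then numbered 1 for TET1-si under hypoxia (MYC, median-of-ratios) and 2 for hypoxia in scrambled cells (MXI1 and MXD4, TPM). At a limit of 1.5-fold they numbered 2 for hypoxia in scrambled cells and 1 for TET1-si under hypoxia, and for hypoxia in knockdown cells they went from 2 to 3, adding MXD3, which was lower. The genes changed in the table, in the same order of contrasts, were 1371, 1836, 1670 and 1327 with a mean of at least 5 FPKM, 6171, 7136, 7309 and 5998 with no filter, and 5561, 6440, 6187 and 5527 at 1.5-fold. With a pseudocount of 1 FPKM they were 1724 for hypoxia in scrambled cells and 1743 for TET1-si under normoxia. The filters and the limit of 1.5-fold set their counts by construction, and a larger pseudocount makes the changes of low genes smaller. The ratio to MYC with the 4 MXD genes only was 0.599 and 0.850 under normoxia (control, then TET1-si) and 1.00 and 1.84 under hypoxia. The list of other family genes, with 4 members, had a median for TET1-si under hypoxia of 0.27, and of -0.40 with a mean of at least 5 FPKM. No paired analysis was possible because each group had 1 library, and for the same reason no replicate could be left out. TET1 rested on 11 to 76 reads.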
